A study of Mus musculus with 6 samples.

Results

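A set of 9 genes of the interferon and JAK-STAT pathway was followed through the LPS response of mouse macrophages: the ligand gene Ifnb1, the receptor genes Ifnar1, Ifnar2, Ifngr1 and Ifngr2, the kinase genes Jak2 and Tyk2, and the transcription factor genes Stat2 and Stat3. They were taken by symbol from the gene table, so 9 of its 17904 genes were members. The rule reads no measured value, but the set was chosen with earlier results of these libraries known. RNA was sequenced from bone marrow-derived macrophages of C57BL/6 mice aged 8 weeks, grown for 5 days with the growth factor M-CSF. The 6 libraries were Setd2-KO and WT macrophages, each at 0 h (without LPS) and after 12 or 24 h with LPS (lipopolysaccharide, from the outer membrane of bacteria) at 100 ng/ml. The labels do not describe the Setd2 allele, a driver of its deletion, or whether libraries share an animal or culture.

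There was 1 library per group, so the values below carry no replicate error and no difference has a replicate check. Depth, estimated from the steps that single reads leave in low values, was similar in the 6 libraries, at 21.7e6 to 22.6e6 mapped reads. Values are FPKM (fragments scaled by transcript length and by library depth), as the authors deposited them. Differences are of log2(FPKM + 1), and a difference of 1 or more in size (2-fold) was called higher or lower. Intervals on differences cover counting error only. Setd2, which encodes a histone methyltransferase of transcribed gene bodies, stood at 9.96, 9.16 and 5.11 FPKM in the KO-labelled libraries at 0, 12 and 24 h, against 7.83, 8.68 and 7.51 FPKM in WT. It was thus higher in KO than in WT at 0 and 12 h, and lower at 24 h. A gene-level value can keep reads of a transcript that lost some exons, but exons were not read and this was not tested. Every genotype direction therefore rests on the labels. Macrophage markers summed to 2493 to 4558 FPKM, and all 8 were expressed. Summed markers of T, B, NK and dendritic cells were 0.10 to 3.61 FPKM per list. Those of neutrophils and their precursors were 7.25 to 22.6 FPKM, and those of stroma and endothelium 6.31 to 27.6 FPKM. The part of these cells in the results was not tested. Differences also followed transcript length: KO minus WT had a Spearman rho with length of 0.60 across 7661 genes at 0 h, 0.13 across 7663 at 12 h and -0.44 across 7663 at 24 h. Each rho describes a pair of libraries across genes, which are not independent replicates. Values with that trend removed are given where it matters. In bulk RNA, more RNA per cell and more cells of a type cannot be told apart.

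Interferon β, the product of Ifnb1, is secreted by macrophages when LPS engages Toll-like receptor 4, and it acts back on the same cells. It binds the receptor made of the Ifnar1 and Ifnar2 chains, which carry the kinases TYK2 and JAK1, and these phosphorylate STAT2. STAT2 acts with IRF9 in ISGF3, a complex that binds interferon-stimulated response elements (ISREs). Interferon γ, made by lymphocytes, instead binds the Ifngr1 and Ifngr2 chains, which use JAK1 and JAK2, and acts through GAS elements. STAT3 serves mainly receptors of the IL-6 and IL-10 families.

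The ligand gene Ifnb1, the members with the highest LPS responses on the log2(FPKM + 1) scale (Stat2 and Jak2) and the member called lower with LPS (Ifngr1) are shown by the 250 bases before their RefSeq start (GRCm38.p6, 5′ to 3′ on the gene's strand), because these windows hold the sequence nearest to where their transcription begins. Capitals mark matches to 3 motifs searched on both strands: the ISRE core (TTTC, any pair of bases, TTTC), the GAS element TTCNNNGAA and the NF-κB motif (GGGA, any pair of bases, TTCC).
Ifnb1 (chr4:88522795-88523044, minus strand): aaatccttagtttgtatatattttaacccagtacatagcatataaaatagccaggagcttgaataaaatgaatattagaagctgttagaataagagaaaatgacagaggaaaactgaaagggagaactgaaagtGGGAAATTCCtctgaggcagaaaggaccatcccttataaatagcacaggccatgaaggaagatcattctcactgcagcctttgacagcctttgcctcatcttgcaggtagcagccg
Stat2 (chr10:128270248-128270497, plus strand): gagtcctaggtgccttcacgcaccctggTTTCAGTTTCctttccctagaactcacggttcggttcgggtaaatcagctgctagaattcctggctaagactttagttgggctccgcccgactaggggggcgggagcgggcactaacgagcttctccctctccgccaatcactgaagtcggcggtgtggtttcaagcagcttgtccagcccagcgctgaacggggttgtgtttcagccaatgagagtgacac
Jak2 (chr19:29251553-29251802, plus strand): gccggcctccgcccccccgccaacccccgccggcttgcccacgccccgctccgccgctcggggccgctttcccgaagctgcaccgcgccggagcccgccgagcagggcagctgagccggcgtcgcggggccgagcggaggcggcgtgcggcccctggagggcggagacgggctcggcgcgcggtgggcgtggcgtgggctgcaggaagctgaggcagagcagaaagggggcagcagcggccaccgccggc
Ifngr1 (chr10:19591699-19591948, plus strand): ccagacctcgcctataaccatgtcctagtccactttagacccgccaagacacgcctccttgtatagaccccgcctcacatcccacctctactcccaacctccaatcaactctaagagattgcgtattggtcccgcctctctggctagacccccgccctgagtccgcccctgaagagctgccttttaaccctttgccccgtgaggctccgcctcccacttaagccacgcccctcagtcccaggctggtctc
The Stat2 window held an ISRE core, 222 to 213 bases before the start, which 2.98% of all 32851 such windows hold. The Ifnb1 window held the NF-κB motif, 116 to 107 bases before the start, against 1.21% of all windows. Among the other members, Ifngr2 held the NF-κB motif on the opposite strand and Ifnar2 held a GAS element, which 7.02% of all windows hold. None of these windows held more than 1 of the motifs, so no matches overlapped. In the Jak2, Ifngr1, Ifnar1, Tyk2 and Stat3 windows these letters were not found. The windows of Ifnar1 (91484965 to 91485214), Tyk2 (21131276 to 21131525) and Stat3 (100939541 to 100939790) reach into the gene spans given below. For these members the absence does not cover the 250 bases before the span. A match is a description of the letters, not of binding.

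The ligand gene was the weakest of the members. Ifnb1 (gene ID 15977; GRCm38 chromosome 4, 88522025 to 88522794) stood at 0.19, 1.52 and 1.85 FPKM in the KO-labelled libraries at 0, 12 and 24 h. In WT it stood at 0, 0.70 and 1.19 FPKM at the same times. These values came from about 3, 23 and 29 reads in KO and 0, 11 and 18 reads in WT, so counting error is wide. Each KO value was above the WT value of its time, and in both genotypes the 0 h value was lowest.

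With LPS, Ifnb1 was called higher in KO at 12 h (1.08) and 24 h (1.26) and in WT at 24 h (1.13), but not in WT at 12 h (0.77). The log2(FPKM + 1) scale understates a gene this low. By reads, KO stood 7.62-fold above its 0 h library at 12 h (exact 95% interval 2.30 to 39.7) and 9.32-fold above it at 24 h (2.89 to 47.8). WT had no Ifnb1 reads at 0 h, so its folds are set against a floor of 3 reads in that library. By the 11 and 18 reads counted, WT was at least 3.67-fold higher at 12 h and at least 5.94-fold higher at 24 h, adjusted for depth. These bounds leave out the counting error of those reads, whose exact 95% intervals are 5.49 to 19.7 and 10.7 to 28.4 reads. Between genotypes, KO over WT was 2.08-fold at 12 h (0.976 to 4.73) and 1.57-fold at 24 h (0.844 to 3.0). Both exact intervals span equality, so no difference between these libraries was detectable at this depth. At 0 h both libraries were at or under the floor. The approximate interval drawn for Ifnb1 at 12 h in the plot of KO minus WT differences does not reach 0, and the exact one is used here. Of 20 other interferon genes listed, Ifna7, Ifnz and Ifng had rows and stayed at or below 0.16 FPKM in every library. The other 17 had no row under the symbols listed, so they were not analysed here.

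**Figure D1:**
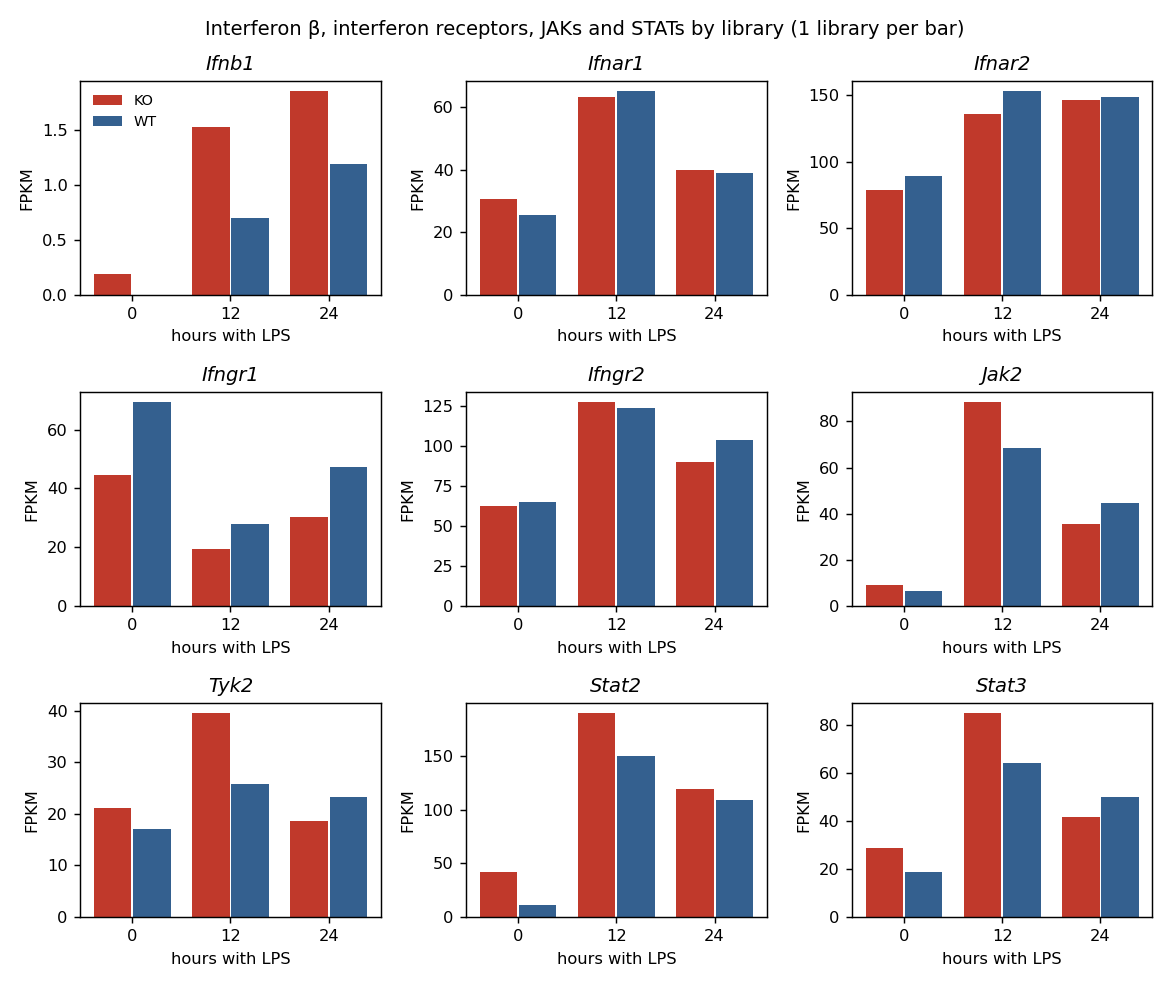
FPKM of the 9 members (vertical axis, linear, each panel on its own scale from 0) by hours with LPS (horizontal axis), KO in red and WT in blue, 1 library per bar. Stat2 at 0 h is the widest relative gap among the well-expressed members (41.4 FPKM in KO, 10.8 in WT), Ifngr1 is lower in KO than in WT at all 3 times, and Ifnb1 stays under 2 FPKM.

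The chains of the type I receptor were well expressed at rest and differed little by genotype. Ifnar1 (chromosome 16, 91485032 to 91510523) encodes the chain that carries TYK2. It stood at 30.5, 63.2 and 39.8 FPKM in KO at 0, 12 and 24 h, against 25.5, 65.1 and 38.9 FPKM in WT. Its 12 h libraries were the highest in both genotypes. Relative to 0 h it was called higher at 12 h in KO (1.03, but 0.98 with the length trend removed, which is no call) and in WT (1.32). At 24 h the differences from 0 h were 0.37 in KO and 0.59 in WT.

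Ifnar2 (chromosome 16, 91372783 to 91405589) encodes the high-affinity chain, which carries JAK1. Its row sums 2 transcripts, and the gene is known to make a soluble as well as a membrane form, so the forms are not separated here. It stood at 78.9, 136 and 147 FPKM in KO and 89.4, 153 and 149 FPKM in WT. Unlike Ifnar1 it was about as high at 24 h as at 12 h, with a ratio of the 24 h to the 12 h library of 1.08 in KO and 0.97 in WT. Differences from 0 h were 0.78 and 0.89 in KO and 0.77 and 0.73 in WT at 12 and 24 h, short of a call as deposited. Ifnar2 exceeded Ifnar1 in all 6 libraries on the FPKM scale, which is per length, by 2.16- to 3.69-fold in KO and 2.35- to 3.83-fold in WT.

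The interferon γ receptor chains moved apart. Ifngr1 (gene ID 15979; chromosome 10, 19591949 to 19610229), the chain that binds the ligand and carries JAK1, stood at 44.4, 19.2 and 30.3 FPKM in KO at 0, 12 and 24 h. In WT it stood at 69.3, 27.9 and 47.4 FPKM. It was the single member called lower with LPS, at 12 h in both genotypes (-1.17 in KO, -1.28 in WT). With trimmed-mean scaling of the libraries these became -0.76 and -0.96, short of a call with the sign kept. At 24 h it stood at -0.54 from 0 h in both.

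As deposited, Ifngr1 was also the member whose genotype difference varied least over the 3 times. KO minus WT was -0.63 at 0 h, -0.52 at 12 h and -0.63 at 24 h, short of the 2-fold rule each time, and -0.56, -0.51 and -0.67 without the length trend. Without that trend, the Ifnar2 difference varied less (-0.10, -0.15 and -0.07). Counting error of Ifngr1 was small, with intervals of -0.71 to -0.55, -0.64 to -0.40 and -0.72 to -0.53. Among all measured genes, 14.9%, 10.6% and 14.4% differed by at least as much as Ifngr1 at the 3 times, as deposited.

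Ifngr2 (chromosome 16, 91547059 to 91564007), the chain that carries JAK2, stood at 62.3, 127 and 89.9 FPKM in KO and 64.7, 124 and 103 FPKM in WT. Relative to 0 h it was called higher at 12 h in KO (1.02, and 0.97 without the length trend) and stood at 0.93 in WT. The ratio of Ifngr2 to Ifngr1 was therefore 1.40, 6.63 and 2.97 in KO at 0, 12 and 24 h, against 0.93, 4.45 and 2.18 in WT. Ifnar2, Ifnar1 and Ifngr2 lie within 191225 bases of chromosome 16 together with Il10rb (91406157 to 91425834), a chain of the IL-10 receptor. Il10rb did not share their course: it stood at 145, 130 and 101 FPKM in KO and 146, 124 and 92.8 FPKM in WT.

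Of the kinases, Jak2 had the larger LPS response. Jak2 (gene ID 16452; chromosome 19, 29251803 to 29313095), which signals for the interferon γ receptor and for receptors of hematopoietic cytokines, stood at 9.03, 88.3 and 35.4 FPKM in KO. In WT it stood at 6.43, 68.4 and 44.6 FPKM. It was lowest at 0 h and highest at 12 h in both genotypes. Relative to 0 h it was called higher by 3.15 at 12 h and 1.86 at 24 h in KO, and by 3.22 and 2.62 in WT. At 12 h these ranked 160 of 11547 genes in KO and 196 of 11549 in WT, counted from the highest.

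Tyk2 (chromosome 9, 21104068 to 21131393), the kinase bound to Ifnar1, moved less. It stood at 21.2, 39.4 and 18.6 FPKM in KO and 17.0, 25.8 and 23.2 FPKM in WT. Its differences from 0 h were 0.87 and -0.17 in KO at 12 and 24 h, and 0.58 and 0.43 in WT. None was called as deposited, and the KO value at 24 h was 0.24 with trimmed-mean scaling, 0.22 with median-of-ratios scaling and 0.20 without the length trend. The KO library at 12 h held the highest Tyk2 level, 1.53-fold that of WT. Jak2 was at 0.43-fold the FPKM of Tyk2 in KO and 0.38-fold in WT at 0 h, and at 2.24-fold in KO and 2.65-fold in WT at 12 h.

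On the log2(FPKM + 1) scale, Stat2 had the largest genotype difference of the 9 members, at 0 h, and in WT the largest differences with LPS. In KO, Jak2 differed more with LPS than Stat2 did, as its values above show. Stat2 (gene ID 20847; chromosome 10, 128270498 to 128292853), the STAT particular to type I and III interferon signalling and itself an interferon-stimulated gene, stood at 41.4, 190.0 and 120 FPKM in KO at 0, 12 and 24 h. In WT it stood at 10.8, 150 and 109 FPKM. The WT library at 0 h was the lowest of the 6, and the KO library at 0 h lay 3.83-fold above it.

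KO minus WT was 1.84 at 0 h, with a counting interval of 1.75 to 1.94, and 1.61 without the length trend. This placed Stat2 at rank 59 of 11547 genes from the highest. In the same pair, the summed stroma and endothelium markers were 14.7 FPKM in KO and 6.31 FPKM in WT, mostly Kdr (8.08 in KO, 2.67 in WT) and Col1a1 (5.76 in KO, 2.86 in WT), and the neutrophil markers 18.5 FPKM in KO and 22.6 FPKM in WT. Their part in the difference was not tested. At 12 h the difference was 0.34 and at 24 h 0.13 (0.35 without the length trend), neither called. LPS raised Stat2 over 0 h by 2.17 and 1.51 in KO at 12 and 24 h, and by 3.67 and 3.22 in WT, and all 4 were called. The LPS response was thus smaller in KO than in WT by 1.5 at 12 h and 1.71 at 24 h, both called (1.29 and 1.25 without the length trend). Both share the 0 h libraries with the 0 h difference, so they are not separate evidence.

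Stat3 (gene ID 20848; chromosome 11, 100886806 to 100939594), whose row sums 3 transcripts, stood at 28.9, 84.8 and 41.7 FPKM in KO and 18.9, 64.0 and 50.1 FPKM in WT. It was called higher with LPS at 12 h in KO (1.52) and at 12 and 24 h in WT (1.71 and 1.36), while KO at 24 h stood at 0.52. KO minus WT was 0.59, 0.40 and -0.26 at the 3 times, and 0.34, 0.38 and -0.03 without the length trend. Jak2 (0.43, 0.36 and -0.33) and Tyk2 (0.30, 0.60 and -0.30) had the same order of signs, and their 24 h values became -0.08 and -0.07 without the trend. None of these 9 values was called. The transcripts of Jak2, Tyk2, Stat2 and Stat3 are the longest of the 9, at 4394 to 4988 nt.

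**Figure D2:**
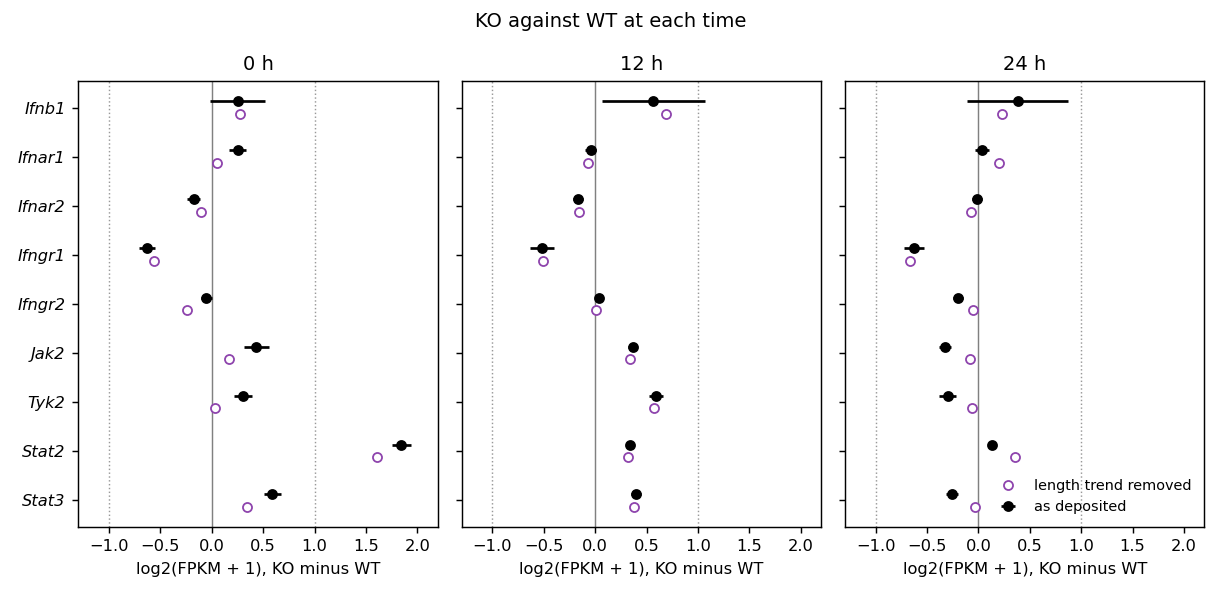
KO minus WT difference in log2(FPKM + 1) (horizontal axis) of each member at 0, 12 and 24 h, black as deposited with 95% counting intervals and open purple with the length trend removed; dotted lines mark 2-fold. Stat2 at 0 h is the single point past a dotted line (1.84 as deposited, 1.61 without the trend), and Ifngr1 lies between -0.52 and -0.63 as deposited at all 3 times.

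Over the 9 members together, KO against WT gave 1 call at 0 h (Stat2), where 4.23% of all measured genes were called, 2.97% higher and 1.26% lower. It gave 0 at 12 h, where 2.05% of all genes were called (1.32% higher and 0.736% lower), and 0 at 24 h, where 4.16% were (2.22% higher and 1.94% lower). The member medians were 0.25, 0.34 and -0.20, beside 0.02, -0.06 and -0.12 over all genes, and 0.05, 0.32 and -0.05 without the length trend. In limma's additive fit of genotype and time, which takes the spread of the genotype difference over the 3 times as its error, 0 of 9 members passed an adjusted p of 0.05. At an unadjusted p under 0.05 there were 2 members, Ifngr1 and Ifnb1, where 8.72% of all genes lay under it. Ifngr1 was under it in all 10 alternatives. Without the 12 h pair, the members under it in limma's fit were Ifngr1 and Stat2 (3.45% of all genes), and Ifnb1 was not. Without the 24 h pair they were Ifngr1, Tyk2 and Stat3 (11.1% of all genes), again without Ifnb1, and with a pseudocount of 5 Ifngr1 alone. Over all 11549 genes 2 passed the adjusted threshold, 0.0173% of all. Ifngr1 had a mean of -0.59 (95% interval -0.93 to -0.25), lower in KO at 3 of 3 times, with a limma adjusted p of 0.30, and of 0.14 to 1 over the alternatives. Stat2 had a mean of 0.77 (-0.01 to 1.55), higher in KO at 3 of 3 times, with an adjusted p of 0.57, and of 0.34 to 1 over the alternatives. Without the 0 h pair the Stat2 mean was 0.24.

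LPS called 6 members higher and 1 lower in KO at 12 h, where 26.1% of all genes were called, 8.63% higher and 17.5% lower. In WT at 12 h, 4 were called higher and 1 lower, where 27.1% of all genes were called, 9.64% higher and 17.4% lower. Without the length trend both genotypes had 4 higher and 1 lower at 12 h. All-gene calls higher and lower were then 994 and 1992 in KO and 1059 and 1785 in WT. As deposited, Ifnb1 was not called in WT at 12 h (0.77), though its bound by reads, without their counting error, was 3.67-fold. At 24 h, 3 were called higher and 0 lower in KO, where 29.1% of all genes were called (7.55% higher and 21.6% lower). In WT at 24 h, 4 were called higher and 0 lower, where 21.5% of all genes were called (7.65% higher and 13.9% lower). Jak2 and Stat2 were called higher in all 4 comparisons. The member medians were 1.03 and 0.52 in KO at 12 and 24 h and 0.93 and 0.73 in WT, beside -0.36 and -0.39 in KO and -0.28 and -0.25 in WT over all genes. With Ifnb1 at its bound, the WT median at 12 h was 1.32. The bound, 1.87 in log2, is a fold of reads without the added 1 and without counting error. That median therefore mixes 2 scales and is not directly comparable with the others. Within a genotype, both responses are taken from a common 0 h library.

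The share of higher calls depends on scaling. Trimmed-mean scaling moved the median of all genes by 0.24 to 0.36 in the LPS comparisons and by 0.11 in KO against WT at 24 h. All-gene calls higher and lower were then 1419 and 1098 in KO at 12 h (997 and 2020 as deposited) and 1419 and 1433 at 24 h (872 and 2489). In WT they were 1506 and 1250 at 12 h (1113 and 2012) and 1119 and 1071 at 24 h (884 and 1603). For KO against WT at 24 h they were 321 and 158 (256 and 224). Members called higher and lower were then 8 and 0 in KO and 6 and 0 in WT at 12 h, since Ifnar2 crossed the threshold in both, Tyk2 in KO and Ifngr2 in WT, and Ifngr1 no longer reached it. At 24 h they were 4 and 0 in KO and 5 and 0 in WT.

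**Figure D3:**
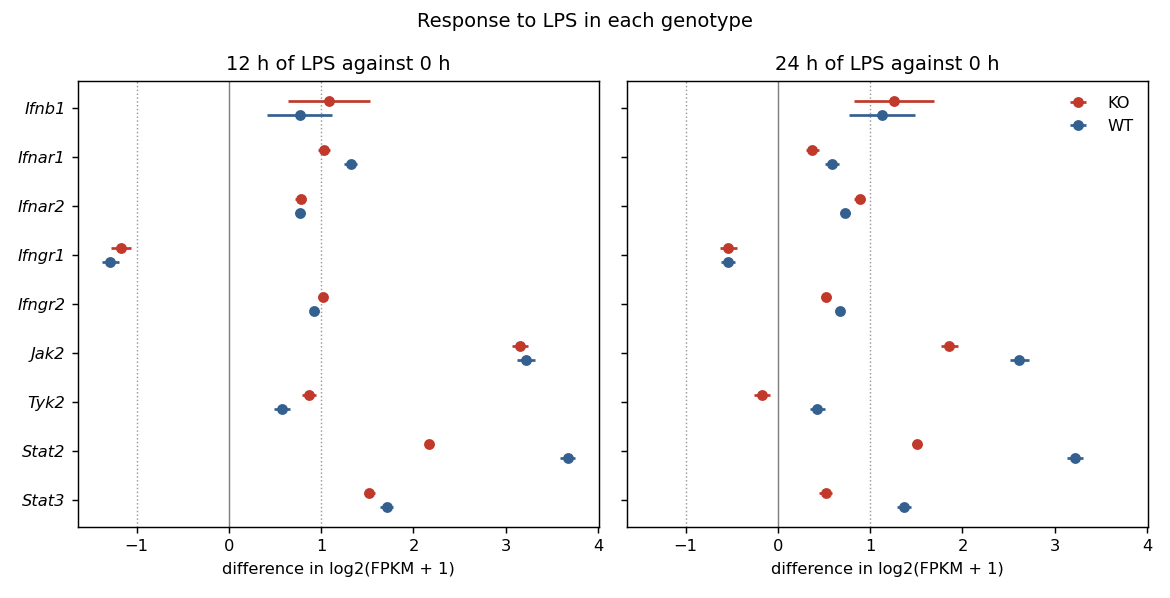
Difference in log2(FPKM + 1) from the 0 h library of the same genotype (horizontal axis) at 12 h (left) and 24 h (right), KO in red above WT in blue, with 95% counting intervals; dotted lines mark 2-fold. Stat2 shows the widest gap between genotypes (2.17 in KO and 3.67 in WT at 12 h), Jak2 reaches over 3 in both at 12 h, and Ifngr1 is the single member below -1.

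The response itself differed by a called amount for 1 of 9 members at 12 h, Stat2, which was lower in KO. There 4.79% of all genes were called, 1.65% higher and 3.14% lower. At 24 h Stat2 was again the single call, where 12.7% of all genes were called, 4.04% higher and 8.63% lower. Next at 24 h, as deposited, were Stat3 (-0.85, and -0.37 without the length trend), Jak2 (-0.76, and -0.25) and Tyk2 (-0.60, and -0.10). Receptor genes of the set, as deposited, lay between -0.22 and 0.16 at 24 h and between -0.29 and 0.11 at 12 h. Without the length trend they lay between -0.11 and 0.18 at 24 h and between -0.12 and 0.25 at 12 h. At 24 h Tyk2 (-0.10) was then no larger in size than Ifngr2 (0.18), Ifnar1 (0.15) and Ifngr1 (-0.11). All-gene calls at 24 h were 467 higher and 997 lower as deposited, and 718 and 734 with trimmed-mean scaling.

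Other kinases and the DNA-binding partner of STAT2 were read at the same times. Irf9, the DNA-binding subunit of ISGF3, stood at 31.1, 41.6 and 32.2 FPKM in KO and 16.2, 43.9 and 40.9 FPKM in WT. KO minus WT was 0.89 at 0 h, short of a call. With LPS, Irf9 was called higher in WT at 12 h (1.38) and 24 h (1.28), while it stood at 0.41 and 0.05 in KO. The response at 24 h was lower in KO than in WT by 1.23, which was called, where 8.63% of all genes were called lower. It shares the 0 h libraries with the 0 h difference of 0.89, so it is not separate evidence. KO minus WT of Irf9 at 24 h was -0.33, short of a call. Jak1, which serves both interferon receptors, stood at 38.4, 52.4 and 29.1 FPKM in KO and 27.4, 45.8 and 36.9 FPKM in WT, and was called in none of these comparisons. Jak3, a kinase of lymphocyte cytokine receptors, was called higher with LPS in WT at 12 h (1.38) and 24 h (1.30), and stood at 0.92 and 0.68 in KO.

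The inhibitors of the pathway were read as a list of 19. At 0 h, 3 were called higher in KO and 0 lower (2.97% and 1.26% of all genes), with a median of 0.25, and -0.00 without the length trend. These were Usp18 (2.86), which displaces JAK1 from Ifnar2, the kinase inhibitor gene Socs1 (1.53) and Socs4 (1.02, and 0.66 without the trend). With a pseudocount of 5 the list had 1 call at 0 h. At 12 h the single call was Cish (1.29, where 1.32% of all genes were called higher), which is lost with a pseudocount of 5. At 24 h Socs1 was called higher (1.38) and Ptprc, a tyrosine phosphatase of leukocytes, lower (-1.08, and -0.85 without the length trend). Of all genes, 2.22% were called higher there and 1.94% lower. Socs3, an inhibitor of IL-6 family signalling, stood at 2.46, 296 and 187 FPKM in KO and 2.39, 254 and 179 FPKM in WT, called higher with LPS in both genotypes and in neither direction by genotype. The list medians at 12 and 24 h were 0.02 and -0.32.

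Genes that lead from TLR4 to Ifnb1 were read as a list of 12. At 0 h, 1 was called higher in KO, where 2.97% of all genes were, and the list median was 0.39. This was Irf7 (a difference of 2.97), the interferon regulatory factor that amplifies the type I response. At 12 h 0 were called, where 2.05% of all genes were (median -0.00). At 24 h 1 was called lower, where 1.94% of all genes were (median -0.02). It was the adaptor gene Ticam2 (-1.01, and -0.83 without the length trend). Irf3, the factor that starts Ifnb1 transcription, stood at 22.1, 15.2 and 25 FPKM in KO and 25.3, 18.5 and 23.2 FPKM in WT. Tlr4, the LPS receptor, stood at 15.6, 11.4 and 9.0 FPKM in KO and 10.8, 10.2 and 11.9 FPKM in WT.

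Of 16 other receptors that use JAKs and STATs, 14 reached 1 FPKM. None was called between genotypes at any of the 3 times (4.23%, 2.05% and 4.16% of all genes), with medians of 0.24, 0.17 and -0.08. With LPS at 12 h, 7 were called higher and 1 lower in KO (8.63% and 17.5% of all genes), and 6 higher and 0 lower in WT (9.64% and 17.4% of all genes). With a pseudocount of 5, the 8 calls in KO became 5. Il4ra, the IL-4 receptor chain, stood at 22.5, 113 and 95.5 FPKM in KO and 15.6, 111 and 98.7 FPKM in WT. With LPS at 24 h, 5 were called higher and 3 lower in KO (7.55% and 21.6% of all genes), and 5 and 1 in WT (7.65% and 13.9%). Il6st, the shared chain of the IL-6 family, was called lower at 24 h in KO (-1.85) and stood at -0.73 in WT. Without the length trend these were -1.33 and -0.97, and the difference of the responses was -0.36 (-1.12 as deposited).

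Genes known as targets of the factors were compared at the same times. Of 15 ISGF3 targets, 14 were called higher in KO at 0 h, where 2.97% of all genes were, with a median of 2.70. Bst2 stood at 0.65 (1.18 without the length trend, which makes 15 of 15). Ifit1, an antiviral gene, stood at 14.1, 278 and 175 FPKM in KO and 1.33, 220 and 116 FPKM in WT. At 12 h 0 of 15 were called (median 0.46), beside 2.05% of all genes. With median-of-ratios scaling 2 were called, and with trimmed-mean scaling 1. At 24 h 2 were called higher (median 0.67, and 1 of 15 called without the length trend), beside 2.22% of all genes.

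Of 14 measured STAT3 targets, 2 were called higher at 0 h, Il1rn (1.96) and Myc (1.56), and 0 lower (median 0.21). Over all genes, 2.97% were called higher there and 1.26% lower. At 12 h Bcl6 was called lower (-1.10, lost with a pseudocount of 5), where 0.736% of all genes were, and the median was -0.01. At 24 h Il1rn (2.26) and Myc (1.27) were called higher and Cebpd (-1.3) and Bcl6 (-1.02, and -0.90 without the length trend) lower (median -0.17). Over all genes, 2.22% were called higher at 24 h and 1.94% lower. With a pseudocount of 5 the 4 calls became 2, and those of Myc and Bcl6 were lost. Irf7, Usp18, Socs3, Il4ra, Il21r and Osmr are in more than 1 of the lists, and the lists were chosen with earlier results of these libraries known, so they are no independent evidence of direction.

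**Figure D4:**
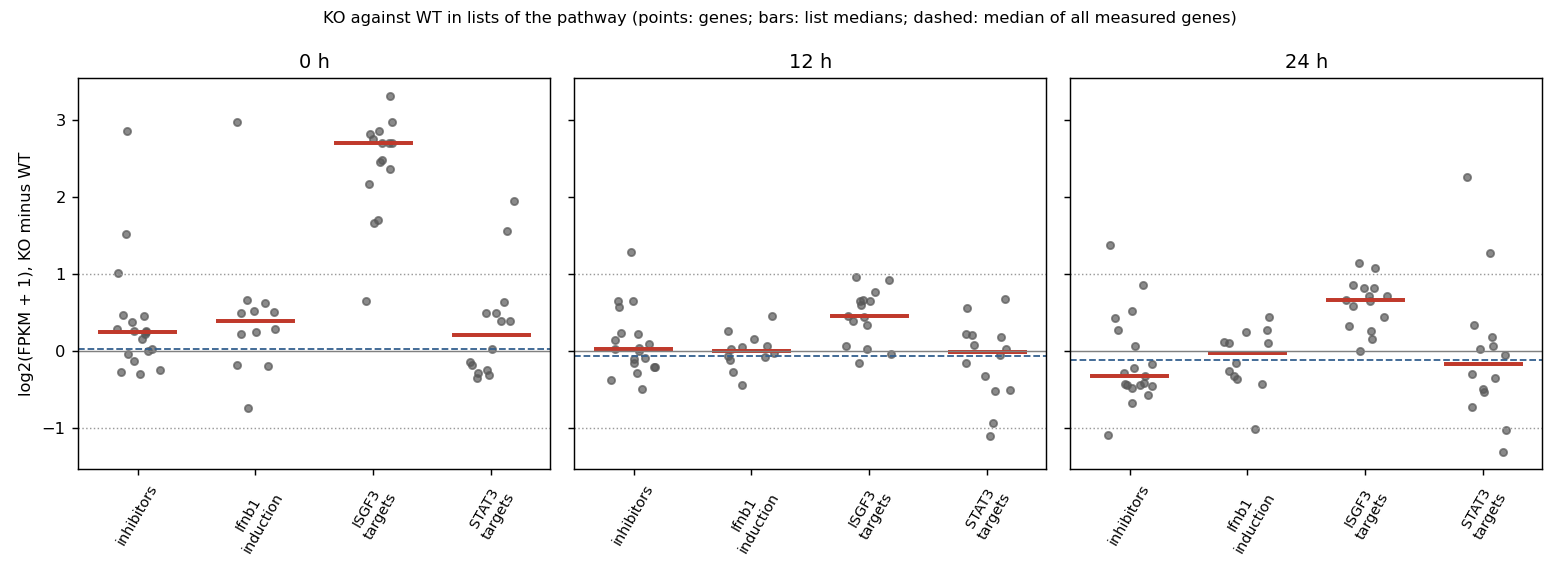
KO minus WT difference in log2(FPKM + 1) (vertical axis) of the measured genes of 4 pathway lists at 0, 12 and 24 h; each point is a gene, red bars are list medians, the blue dashed line is the median of all measured genes and dotted lines mark 2-fold. The ISGF3 targets stand apart at 0 h (median 2.70) and lie between -0.16 and 1.14 at 12 and 24 h.

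The course of each member over the 6 libraries was compared with 5030 genes that reached 5 FPKM and ranged by 1 or more. The distance was the root mean square of the differences between centred log2(FPKM + 1) profiles, given as a description with no test. Nearest to Stat2 were Trim30d (0.12), Slfn8 (0.12) and Ddx60 (0.12), an antiviral helicase gene. Jak2 was nearest to Nfkbie (0.18), which encodes an inhibitor of NF-κB, then Tnfrsf1b (0.21) and Herc6 (0.23). Stat3 was nearest to Tank (0.12), Slx4ip (0.13) and Tbc1d9 (0.13). Ifngr1 was nearest to Nthl1 (0.09), B4gat1 (0.11) and Thoc7 (0.11), and Ifnar1 to Serp1, Ppp1r15b and Cnn2 (0.08 each). Tyk2 was nearest to Lrp11 (0.05), Ifngr2 to Tmco4 (0.07), and Ifnb1 to Sqstm1 (0.11), for Ifnb1 from few reads. The log2(FPKM + 1) scale understates the Ifnb1 changes, so its match with Sqstm1 is not one of folds. In KO at 12 h Ifnb1 was at 8-fold its 0 h FPKM, while Sqstm1 stood at 652 FPKM against 364 at 0 h. Ifnar2 ranged by 0.95 and was not compared. Among the members, Ifnar1 and Ifngr2 were the nearest pair (0.17), then Ifnar2 and Ifngr2 (0.19), and Ifngr1 and Stat2 the farthest (1.91).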

How the data were processed

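RNA of 6 libraries was sequenced on the BGISEQ-500 platform, per the labels' protocols. The authors deposited 1 table of FPKM with 2 decimals, per the file headers. Bowtie2, RSEM and GRCm38 are named in the submitters' processing notes, and their versions and settings are not given in the sources used here. Of 17905 rows, 1 names no gene and was left out. In the KO 0 h column, 2 cells that are not numbers were read as missing, and neither is a member. Gene symbols turned into dates (25) were restored from gene IDs.

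A gene counted as measured at 1 FPKM or more in at least 1 library (11549 genes). Calls used log2(FPKM + 1) differences of 1 or more. limma 3.58.1 (R 4.3.3; robust empirical Bayes, intensity trend, Benjamini-Hochberg adjustment over all measured genes) fitted genotype and time additively. Depth was fitted with an assumed read length of 50 nt. Its score was 0.410 to 0.451, and 0.0611 to 0.0998 after shuffling the lengths. Transcript lengths came from GENCODE M21 (99.6% of measured genes). The length trend was a lowess curve (span 0.3) per library over genes averaging 10 FPKM or more. Gene coordinates and promoter windows came from RefSeq, GRCm38.p6, and matched all 9 members. Alternatives were pseudocounts of 0.1 and 5, no minimum or 5 FPKM, 2 scalings, the length correction and, for limma, each time left out. Members, lists and tests were chosen with earlier results of these data known. All members, every list gene called in a comparison, and the 3 genes most alike each member could be named. Irf3, Tlr4, Jak1, Il10rb, Kdr and Col1a1 fall outside that rule and were named after their values were seen. Some results of the pathway are not reported here.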

Additional observations from a re-analysis of the deposited data

Results flagged for a closer look

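The KO minus WT difference of 3 members pointed one way at 0 and 12 h and the other way at 24 h, each beyond its counting interval. For Jak2, the 24 h difference was lower than that at 0 h by 0.76 on the log2(FPKM + 1) scale (a change of -0.76) and than that at 12 h by 0.69 (-0.69). For Tyk2 the changes were -0.60 and -0.90, and for Stat3 -0.85 and -0.66. Tyk2 also stood below its 0 h library at 24 h in KO (-0.17) and above it in WT (0.43), a difference of -0.60 between the responses. With 1 library per group these differences were not tested. Without the length trend the 24 h differences of Jak2, Tyk2 and Stat3 were -0.08, -0.07 and -0.03, and the Tyk2 response in KO was 0.20.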

How the results depend on the processing

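No paired analysis was possible because the replicate number is 1 in every group and pairs nothing beyond time, which limma's fit of genotype and time already holds as a term. Of 567 differences of single members under 7 alternatives, 539 kept their side of the 2-fold rule, 14 lost a call and 14 gained one, and no called value changed sign. Stat2 at 0 h was called under all 7. With a pseudocount of 0.1, members called in KO against WT were 2 at 0 h (1 with a pseudocount of 1) and 1 at 12 h (0), both by Ifnb1 (1.54 and 1.02), and with a pseudocount of 5, members called with LPS at 12 h in KO were 4 (7). Other counts of called members moved by at most 1.5 times. limma passed 0 members under its 10 alternatives, and over all genes 43 higher and 14 lower without the 0 h pair and 33 and 12 without the 24 h pair (0 and 2 in the full fit). The cause was not tested. Depth limits Ifnb1, with at most 29 reads, while the other members had 692 to 18047 reads per library.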
